A study of Mus musculus with 18 samples.

Results

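The 10 primitive endoderm genes, *Gata4*, *Gata6*, *Sox17*, *Sox7*, *Pdgfra*, *Foxa2*, *Dab2*, *Lama1*, *Lamb1* and *Cubn*, were followed in nascent RNA of WT and *Tet2*-KO mouse embryonic stem (mES) cells. They were chosen by name, and all 10 were found among the 54446 genes of the count files through their Ensembl identifiers in GENCODE M21. WT and *Tet2*-KO mES cells took up the uridine analogue 5-ethynyl uridine (EU, 1 mM) over 10, 20 or 40 min, and the RNA made in that time was captured by this label and sequenced. Genotype and labelling time make 6 groups of 3 replicates, 18 libraries together. Both are pluripotent lines grown in the same medium with serum, LIF, the GSK3 inhibitor CHIR99021 and the MEK inhibitor PD0325901, and were passaged on gelatin to clear feeder cells. The methods name 1 WT and 1 *Tet2*-KO line and replicate dishes of each, so genotype cannot be told apart from any other difference between these lines, and the p-values below measure the spread between dishes of 1 line.

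Primitive endoderm is the epithelium that separates from the pluripotent epiblast inside the blastocyst and later forms the visceral and parietal endoderm of the yolk sac. FGF signalling through MEK and ERK sustains GATA6 in the cells that take this path, and GATA4, SOX17, SOX7 and FOXA2 follow, while PDGFRA marks the cells at their surface. DAB2 and cubilin serve endocytosis in the mature endoderm, and the laminin chains LAMA1 and LAMB1 build the basement membrane beneath it. mES cells cultured with a MEK inhibitor are held away from this fate and carry little of its transcription factors.

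The starts of 5 of the 10 genes were found in the RefSeq promoter table of GRCm38.p6, the build also called mm10, as 8 windows of the 250 bases before a start. 3 of them are shown, because *Lamb1* and *Cubn* had a smaller share of gene reads in *Tet2*-KO libraries below and *Dab2* did not. Capitals mark CG pairs, the sites of DNA methylation, and each run stops before the first annotated exon. This cuts the last CG pair of *Dab2* and leaves 191 bases with 10 CG pairs for *Lamb1*.
Lamb1: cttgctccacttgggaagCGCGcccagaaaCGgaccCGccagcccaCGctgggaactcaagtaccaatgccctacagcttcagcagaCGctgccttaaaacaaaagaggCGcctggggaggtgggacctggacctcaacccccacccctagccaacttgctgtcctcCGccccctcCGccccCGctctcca
Cubn: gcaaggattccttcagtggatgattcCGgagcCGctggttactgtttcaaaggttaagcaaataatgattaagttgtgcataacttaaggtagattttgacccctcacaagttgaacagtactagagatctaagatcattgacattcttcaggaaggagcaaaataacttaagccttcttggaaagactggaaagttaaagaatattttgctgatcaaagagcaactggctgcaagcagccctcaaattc
Dab2: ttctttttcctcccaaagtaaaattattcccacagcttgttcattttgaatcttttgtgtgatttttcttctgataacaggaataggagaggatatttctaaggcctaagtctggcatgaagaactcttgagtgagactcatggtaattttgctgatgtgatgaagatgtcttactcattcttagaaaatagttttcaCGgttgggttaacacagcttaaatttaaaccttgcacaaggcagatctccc
The *Lamb1* run lies at chr12:31265043-31265233 on the plus strand, the *Cubn* run at chr2:13491877-13492126 on the minus strand and the *Dab2* run at chr15:6299539-6299787 on the plus strand. The full window of *Lamb1* held 14 CG pairs, whereas those of *Cubn* and of this *Dab2* start held 2 each, against a median of 6 over the 32851 windows of the table. A start of *Dab2* inside the gene had a window with 17. GATAA, the core of GATA sites, was searched on both strands and occurred once in the printed *Dab2* run, once in 1 of the 3 *Foxa2* windows and not in those of *Lamb1*, *Cubn* or *Pdgfra*, and 22.6% of all windows held it. ACAAT, the core of SOX sites, was searched in the same way and was in none of the 8 windows, against 27.7% of all. These are letter matches only.

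The reads on genes numbered 17931614 to 23069143 in a library, and 44162 to 512186 lay on the ERCC spike-in transcripts, which had been added in proportion to total RNA. Levels are given on 2 scales. Reads per 1000 ERCC reads follow the amount of labelled RNA, and CPM, the reads of a gene in 1000000 gene reads, give its share among all labelled RNA. The mES markers *Nanog*, *Pou5f1*, *Esrrb* and *Zfp42* were read in every group, and *Sox2* was listed at 0 in all 18 libraries. *Sox2* lies wholly inside *Sox2ot* on the same strand, and 98.0% of the 205 protein-coding genes in such a position with no exon shared were at 0, against 13.2% of the 11721 with no other gene over them. No primitive endoderm gene lies in such a place. Reads on *Tet2* were still present under the *Tet2*-KO label, at 51.0 ± 2.76 reads per 1000 ERCC reads (SD, n = 3) at 10 min against 27.8 ± 2.46 in WT. As a share they were 530 to 540 CPM at 10 min against 589 to 599 in WT, and 635 to 643 at 40 min against 734 to 741. The reads alone do not show a loss of *Tet2*, and the genotypes are taken from the labels. Gene totals cannot show the loss of a single exon.

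The 10 genes differed widely in level. *Lama1* and *Lamb1* took 92.9% of their reads, 82.3% and 10.6%. Per kb of exon, *Lama1* stood at 22.1 CPM, *Lamb1* at 2.75, *Dab2* at 1.17, *Gata4* at 1.06 and *Pdgfra* at 0.282. *Gata6* at 0.176, *Sox7* at 0.112 and *Cubn* at 0.0895 followed, and *Foxa2* at 0.0240 and *Sox17* at 0.0227 came last. Nascent reads also fall in introns, and per kb of the whole gene *Pdgfra* moved up to the third place and *Cubn* down to the last while *Lama1* and *Lamb1* kept the first 2. The transcription factors that define the lineage were read less than the laminin chains in both lines.

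**Figure D1:**
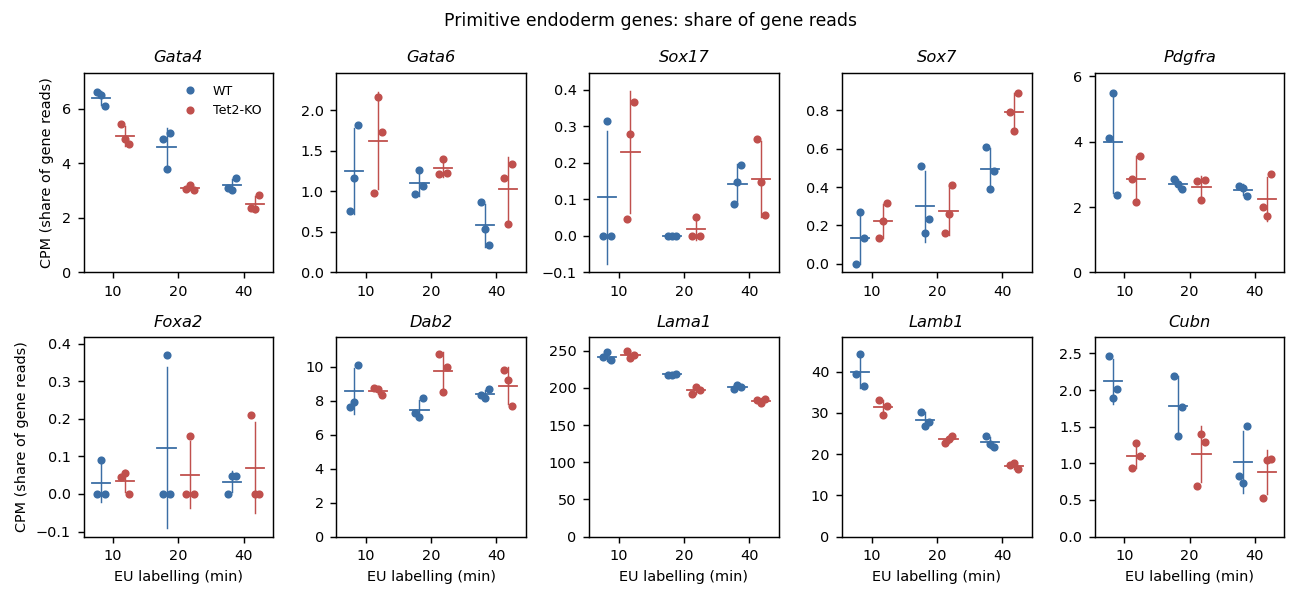
Share of gene reads of the 10 primitive endoderm genes, as CPM (vertical, from 0 or, where an error bar passes it, below) against EU labelling time in min, for WT (blue) and *Tet2*-KO (red). Each point is 1 library, horizontal lines are means and vertical lines SD of 3 libraries. *Lamb1* and *Gata4* were lower in every *Tet2*-KO library than in every WT library at each time, and *Sox17* and *Foxa2* lay at or near 0.

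Of the 10 genes, 8 had enough reads to be tested, *Sox17* and *Foxa2* having at most 7 reads in any library. Per ERCC read, averaged over the labelling times, 7 of the 8 were higher in *Tet2*-KO libraries and none was lower, where 80.5% of the 19910 genes tested were higher and 4.15% lower (edgeR's quasi-likelihood test, Benjamini-Hochberg adjusted p under 0.05). The median log2 fold change was 0.57 over the 8 and 0.70 over all genes tested, and 5 of the 8 lay below the median of all genes. As a share of gene reads, none of the 8 was higher and 4 were lower, *Gata4*, *Lama1*, *Lamb1* and *Cubn*, where 24.6% of all genes tested were higher and 32.0% lower. None of these 4 was lower per ERCC read, and neither scale gives RNA per cell. A different level in each cell and a different number of cells that make the RNA cannot be told apart in bulk libraries.

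**Figure D2:**
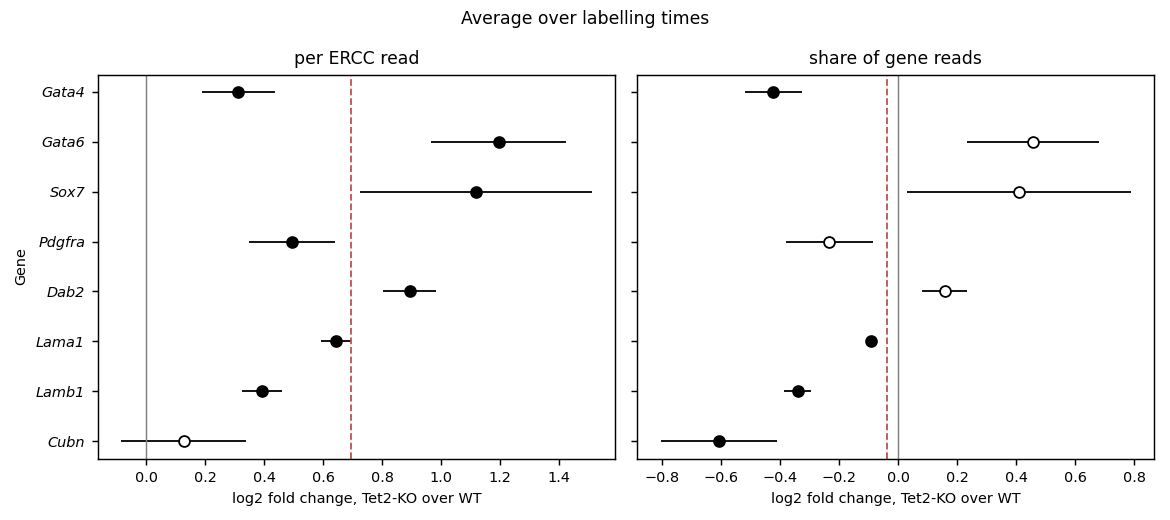
Log2 fold change of *Tet2*-KO over WT, averaged over labelling times, for the 8 tested genes per ERCC read (left) and as share of gene reads (right). Bars are standard errors, filled points have an adjusted p under 0.05 and the dashed red line is the median of all genes tested, 0.70 and -0.04. On the left 7 genes were called, and *Gata4*, *Lama1*, *Lamb1* and *Cubn* on the right.

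GATA4 and GATA6 are zinc finger factors that start and keep the endoderm programme. *Gata4* lies on chromosome 14 from 63198922 to 63271692 on the minus strand of mm10. Its share in WT was 6.59, 6.51 and 6.11 CPM at 10 min, 4.88, 3.80 and 5.12 at 20 min and 3.08, 3.03 and 3.45 at 40 min. In *Tet2*-KO it was 5.43, 4.88 and 4.72 at 10 min, 3.07, 3.21 and 3.03 at 20 min and 2.37, 2.32 and 2.84 at 40 min. At each time every *Tet2*-KO library lay below every WT library. The average log2 fold change of the share was -0.42 ± 0.10 (SE, adjusted p = 3.84e-04), a factor of 0.746. Per 1000 ERCC reads the means ran the other way, 0.478 ± 0.0415 (SD, n = 3) against 0.300 ± 0.0353 in WT at 10 min and 0.999 ± 0.140 against 0.786 ± 0.0382 at 40 min, while at 20 min the groups overlapped. The average log2 fold change on that scale was 0.31 ± 0.12 (adjusted p = 0.0154) and was 0.13 ± 0.16 (adjusted p = 0.454) from 20 and 40 min alone, so this call rested on the 10 min libraries.

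*Gata6*, on chromosome 18 from 11052064 to 11085635 on the plus strand, had between 7 and 40 reads per library. Per 1000 ERCC reads it stood in WT at 0.0355, 0.0594 and 0.0781 at 10 min, 0.140, 0.199 and 0.150 at 20 min and 0.211, 0.139 and 0.0814 at 40 min. The *Tet2*-KO libraries had 0.0939, 0.194 and 0.174 at 10 min, 0.233, 0.301 and 0.260 at 20 min and 0.498, 0.217 and 0.531 at 40 min. Every *Tet2*-KO library was above every WT library of its labelling time, and the average log2 fold change was 1.20 ± 0.23 (adjusted p = 4.08e-07), a factor of 2.29. As a share the groups overlapped at all 3 times and the log2 fold change of 0.46 ± 0.22 was not called (adjusted p = 0.0821, 95% interval 0.02 to 0.90 before adjustment). This call turned on single libraries, since the share passed the threshold without WT 10 min replicate 3 (0.58, adjusted p = 0.0271), WT 40 min replicate 1 (0.60, adjusted p = 0.0344), *Tet2*-KO 10 min replicate 1 (0.55, adjusted p = 0.0340) or *Tet2*-KO 40 min replicate 2 (0.55, adjusted p = 0.0387).

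The 2 GATA genes stood differently to each other in the 2 lines. A ratio of reads within a library does not depend on either scale. *Gata4* had 8.65, 5.58 and 3.35 reads per *Gata6* read in WT at 10 min, 5.05, 3.00 and 4.78 at 20 min and 3.55, 5.64 and 10.1 at 40 min. In *Tet2*-KO the ratio was 5.55, 2.26 and 2.73, then 2.52, 2.30 and 2.46, then 2.05, 3.92 and 2.12. The groups overlapped at 10 and 40 min and not at 20 min. The ratio was 0.539-fold in *Tet2*-KO on average, a log2 difference of -0.89 (exact two-sided permutation test over 8000 exchanges of genotype within labelling times, p = 0.0030, adjusted p = 0.0040 over the 4 ratios tested, which were chosen after the counts were seen).

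The SOX and FOXA factors had the fewest reads. SOX17 and SOX7 are related factors of endoderm and endothelium, and FOXA2 opens chromatin in endoderm. *Sox17*, on chromosome 1 from 4490931 to 4497354 on the minus strand, had 16 reads in the 9 WT libraries together and 23 in the 9 *Tet2*-KO libraries, with none in 7 of the 18 libraries. *Foxa2*, on chromosome 2 from 148042877 to 148046969 on the minus strand, had 11 and 9 reads, with none in 10 libraries. A difference in either gene was not detectable at this depth. No fold is given, because most libraries were at 3 reads or fewer.

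*Sox7*, on chromosome 14 from 63943673 to 63950732 on the plus strand, was the only one of the 3 that could be tested. WT libraries had 0, 6 and 3 reads at 10 min, 10, 3 and 5 at 20 min and 14, 8 and 10 at 40 min. *Tet2*-KO libraries had 3, 4 and 6, then 3, 5 and 8, then 15, 14 and 16. Per 1000 ERCC reads the groups overlapped at 10 and 20 min, and at 40 min the *Tet2*-KO libraries at 0.340, 0.253 and 0.354 were all above the WT libraries at 0.148, 0.101 and 0.116. The average log2 fold change per ERCC read was 1.12 ± 0.39 (adjusted p = 0.00592), and from 20 and 40 min alone 0.87 ± 0.45 (adjusted p = 0.0714). The share had a log2 fold change of 0.41 ± 0.38 (adjusted p = 0.375), whose 95% interval from -0.34 to 1.15 is wide.

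PDGFRA is the receptor for platelet-derived growth factor, used to sort primitive endoderm cells and also present on fibroblasts. *Pdgfra* lies on chromosome 5 from 75152292 to 75198215 on the plus strand. Its share in WT was 4.13, 5.48 and 2.37 at 10 min, 2.85, 2.69 and 2.56 at 20 min and 2.64, 2.59 and 2.33 at 40 min. *Tet2*-KO libraries had 2.85, 2.16 and 3.57, then 2.81, 2.23 and 2.83, then 2.0, 1.73 and 3.01. The groups overlapped at every time, and the 10 min WT libraries were spread most. The share had a log2 fold change of -0.23 ± 0.15 (adjusted p = 0.181), which became -0.32 (adjusted p = 0.0358) without WT 10 min replicate 3. Per ERCC read it was 0.49 ± 0.15 (adjusted p = 0.00101). A list of 12 fibroblast markers moved between the same libraries, from a summed 46.7 to 50.6 CPM in WT at 10 min to between 17.6 and 29.2 in the other 5 groups, and 1 of its 12 genes had at most 3 reads in every library. Its part in the *Pdgfra* values was not tested.

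DAB2 is an adaptor of clathrin-coated pits, and *Dab2* lies on chromosome 15 from 6299788 to 6440712 on the plus strand. Per 1000 ERCC reads WT stood at 0.355, 0.404 and 0.433 at 10 min, 1.05, 1.10 and 1.14 at 20 min and 2.02, 2.11 and 2.08 at 40 min. *Tet2*-KO stood at 0.841, 0.781 and 0.840, then 2.06, 1.84 and 2.10, then 4.21, 3.37 and 3.05. The groups were apart at all 3 times. The log2 fold change was 0.89 ± 0.09 (adjusted p = 1.91e-20), a factor of 1.86. As a share, *Dab2* was 7.03 to 10.1 in WT and 7.70 to 10.8 in *Tet2*-KO, and the log2 fold change of 0.16 ± 0.08 was not called (adjusted p = 0.0770). The share passed the threshold without WT 10 min replicate 3 (0.20, adjusted p = 0.0185), *Tet2*-KO 20 min replicate 2 (0.19, adjusted p = 0.0430) or *Tet2*-KO 40 min replicate 3 (0.19, adjusted p = 0.0405), and also with TMM scaling (0.20, adjusted p = 0.0259).

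Cubilin is a large receptor of the visceral endoderm that takes up vitamin B12 with its carrier. *Cubn* lies on chromosome 2 from 13276338 to 13491813 on the minus strand and had 10 to 55 reads per library. Its share in WT was 2.47, 1.89 and 2.01 at 10 min, 2.19, 1.37 and 1.77 at 20 min and 0.824, 0.734 and 1.51 at 40 min. In *Tet2*-KO it was 0.934, 1.28 and 1.10, then 0.688, 1.40 and 1.28, then 0.527, 1.04 and 1.06. The groups were apart at 10 min and overlapped at 20 and 40 min. The log2 fold change of the share was -0.61 ± 0.20 (adjusted p = 0.00941), a factor of 0.657, and -0.44 ± 0.25 (adjusted p = 0.150) from 20 and 40 min alone. Per ERCC read *Cubn* was the only tested member not called, at 0.13 ± 0.21 (adjusted p = 0.572, 95% interval -0.29 to 0.54).

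Laminin chains assemble as trimers of an alpha, a beta and a gamma chain, and LAMA1, LAMB1 and LAMC1 form laminin-111, the first laminin of the embryo. *Lama1* lies on chromosome 17 from 67697259 to 67822647 on the plus strand, and *Lamb1* on chromosome 12 from 31265234 to 31329644 on the plus strand. The share of *Lama1* in WT was 241, 248 and 238 at 10 min, 218, 218 and 219 at 20 min and 198, 204 and 201 at 40 min. In *Tet2*-KO it was 249, 240 and 245, then 192, 201 and 197, then 184, 180 and 185. The groups overlapped at 10 min, and at 20 and 40 min every *Tet2*-KO library was lower. The average log2 fold change of the share was -0.09 ± 0.02 (adjusted p = 1.13e-05), a factor of 0.939. This is a small fall, as the median over all genes tested was -0.04 with quartiles of -0.29 and 0.19. Per 1000 ERCC reads *Lama1* was higher in every *Tet2*-KO library at every time, 23.4 ± 1.66 (SD, n = 3) against 11.3 ± 1.23 at 10 min, 40.6 ± 3.46 against 32.1 ± 1.84 at 20 min and 72.7 ± 6.68 against 49.7 ± 2.59 at 40 min, with a log2 fold change of 0.64 ± 0.05.

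*Lamb1* had the larger fall in share of the 2, which the ratio of their reads below tests. Its share in WT was 39.4, 44.2 and 36.5 at 10 min, 30.3, 26.9 and 27.9 at 20 min and 24.4, 22.5 and 21.7 at 40 min. In *Tet2*-KO it was 33.0, 29.6 and 31.7, then 22.6, 23.7 and 24.5, then 17.4, 17.8 and 16.4. No *Tet2*-KO library reached a WT library of the same time, and the log2 fold change of the share was -0.34 ± 0.05 (adjusted p = 9.11e-08), a factor of 0.790. Per ERCC read it was 0.39 ± 0.07 (adjusted p = 2.52e-08), and the groups overlapped at 20 min.

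**Figure D3:**
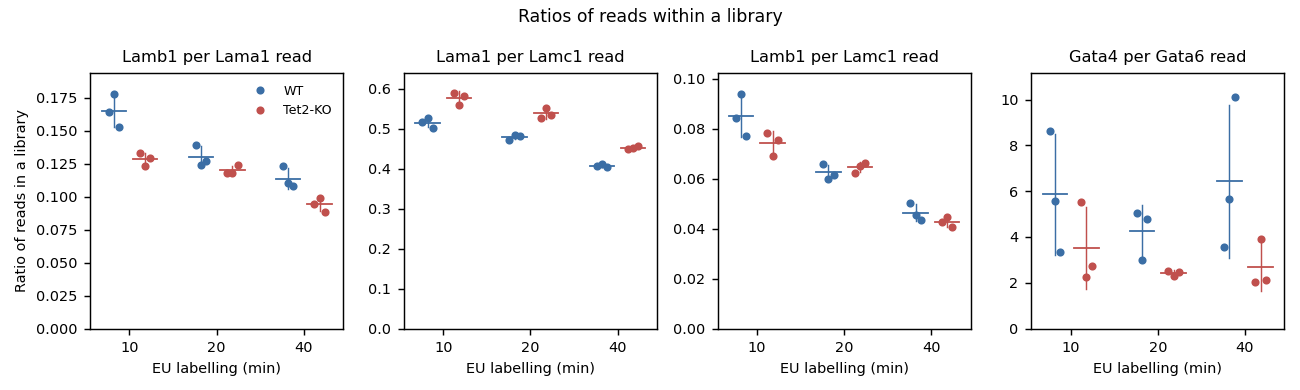
Ratios of reads within a library (vertical, linear from 0) against EU labelling time in min, for WT (blue) and *Tet2*-KO (red), with each library as a point, means as horizontal and SD as vertical lines. *Lama1* per *Lamc1* read was higher in all *Tet2*-KO libraries at each time, *Lamb1* per *Lama1* read lower at 10 and 40 min, and *Lamb1* per *Lamc1* read overlapped at each time.

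The chains of the trimer were set against each other within a library. *Lamb1* had 0.164, 0.178 and 0.153 reads per *Lama1* read in WT at 10 min, 0.139, 0.124 and 0.127 at 20 min and 0.123, 0.110 and 0.108 at 40 min. In *Tet2*-KO it had 0.133, 0.123 and 0.129, then 0.118, 0.118 and 0.124, then 0.0946, 0.0992 and 0.0885. The ratio was 0.842-fold in *Tet2*-KO on average (exact two-sided permutation test, p = 0.0005, adjusted p = 0.0010). *Lama1* per *Lamc1* read was higher in *Tet2*-KO at every time, 0.578 ± 0.0158 against 0.515 ± 0.0115 at 10 min, 0.539 ± 0.0133 against 0.480 ± 0.00643 at 20 min and 0.453 ± 0.00470 against 0.408 ± 0.00367 at 40 min, and 1.12-fold on average (exact permutation, p = 0.00025, the smallest the exchanges can give, adjusted p = 0.0010). For *Lamb1* per *Lamc1* read the log2 difference of -0.09 did not pass the threshold (exact permutation, p = 0.0935). The share of *Lamc1* itself was lower in *Tet2*-KO, with a log2 fold change of -0.25 ± 0.01.

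**Figure D4:**
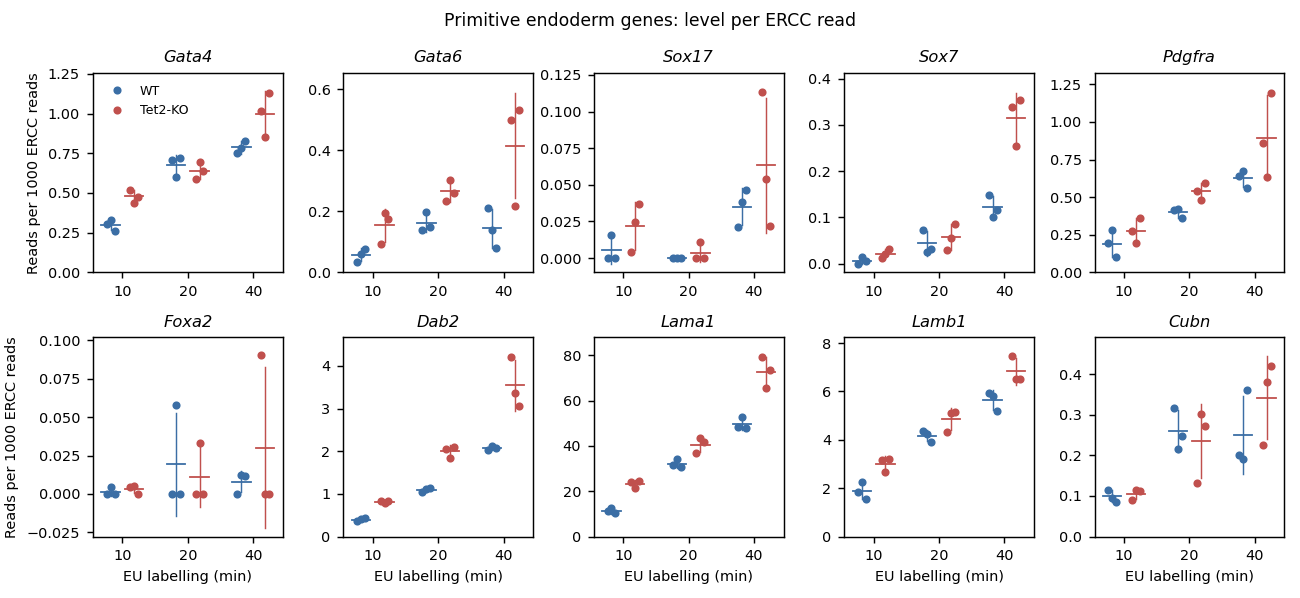
Level of the 10 primitive endoderm genes as reads per 1000 ERCC reads (vertical) against EU labelling time in min, for WT (blue) and *Tet2*-KO (red), with each library as a point, means as horizontal and SD as vertical lines. *Lama1*, *Dab2* and *Gata6* were higher in every *Tet2*-KO library than in every WT library of the same time.

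Per ERCC read, most members were called at 10 min, and all of the 8 but *Cubn* were higher in *Tet2*-KO there, where 79.0% of all genes tested were higher and 2.10% lower. At 20 min only *Dab2* and *Lama1* were higher, against 53.7% of all genes (4.86% lower), and at 40 min 5 were, *Gata6*, *Sox7*, *Dab2*, *Lama1* and *Lamb1*, against 68.2% (2.84% lower). No member was lower per ERCC read at any time. Without WT 40 min replicate 3 or *Tet2*-KO 40 min replicate 1 the count at 40 min was 3. The count at 10 min was 5 to 7 with each library left out in turn. As a share, *Lamb1* and *Cubn* were lower at 10 min, against 27.1% of all genes (17.9% higher), and without WT 10 min replicate 1 or *Tet2*-KO 10 min replicate 1 the count was 1. *Gata4*, *Lama1* and *Lamb1* were lower at 20 min, against 20.7%, and *Lama1* and *Lamb1* at 40 min, against 19.6% (18.9% higher). *Dab2* was higher as a share at 20 min, with a log2 fold change of 0.38 ± 0.13 (adjusted p = 0.0224, 17.6% of all genes higher), and no longer without WT replicate 1 or 2 or *Tet2*-KO replicate 1 or 3 of that time.

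*Lama1* was the only tested member called for a change of the difference between the lines from 10 to 40 min. Its log2 fold change per ERCC read was 1.04 ± 0.09 at 10 min, 0.34 ± 0.09 at 20 min and 0.55 ± 0.09 at 40 min, and the change from 10 to 40 min was -0.49 ± 0.12 (adjusted p = 0.00240), as in 19.3% of all genes tested (0.552% in the other direction). As a share it was 0.01 ± 0.03 at 10 min, -0.15 ± 0.03 at 20 min and -0.14 ± 0.03 at 40 min, a change of -0.15 ± 0.04 (adjusted p = 0.0113), as in 3.36% of all genes (5.89% in the other direction). Per ERCC read the count of such members was 2 without WT 10 min replicate 2, *Tet2*-KO 10 min replicate 2 or *Tet2*-KO 40 min replicate 1. The median log2 fold change per ERCC read over all genes tested also fell, being 0.96 at 10 min, 0.45 at 20 min and 0.67 at 40 min. The median change from 10 to 40 min over all genes was -0.29 per ERCC read and 0.06 as a share.

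Within a line, longer labelling gave more reads per ERCC read. All 8 tested members were higher at 40 than at 10 min in WT and in *Tet2*-KO, as were 96.7% and 94.7% of all genes, with 2 and 1 of the 19910 genes lower (0.0100% and 0.00502%). Most fell as a share in WT. *Gata4*, *Gata6*, *Pdgfra*, *Lama1*, *Lamb1* and *Cubn* were lower at 40 than at 10 min, 6 of the 8 where 29.5% of all genes were, with log2 fold changes of -1.01 ± 0.16, -1.08 ± 0.40, -0.66 ± 0.24, -0.27 ± 0.03, -0.81 ± 0.08 and -1.05 ± 0.33. In *Tet2*-KO 3 were lower, *Gata4* at -1.0 ± 0.17, *Lama1* at -0.42 ± 0.03 and *Lamb1* at -0.87 ± 0.08, against 20.0% of all genes. The WT count was 3 without WT 40 min replicate 2. *Sox7* was the only member that rose as a share, by 1.83 ± 0.67 in WT (16.1% of all genes) and 1.82 ± 0.61 in *Tet2*-KO (16.5%), from 9 reads in the 3 WT libraries at 10 min. It was no longer called in WT without WT 10 min replicate 1 or WT 40 min replicate 1, nor in *Tet2*-KO without its 10 min replicate 1 or 40 min replicate 3. The 7 tested fibroblast markers were all lower in share at 40 than at 10 min in WT, with a median log2 fold change of -2.52, and 1 of the 7 was in *Tet2*-KO. Their part in the falling shares was not tested.

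The slope of the level on labelling time, in reads per 1000 ERCC reads per min, was larger in *Tet2*-KO for all 8 members tested, as it was for 86.8% of the 19910 genes tested. *Sox17* and *Foxa2* had too few reads for a comparison of slopes. It was 1.64 ± 0.111 (SE) against 1.22 ± 0.122 in WT for *Lama1*, 0.0888 ± 0.00961 against 0.0548 ± 0.00228 for *Dab2* and 0.0203 ± 0.00435 against 0.0140 ± 0.00182 for *Pdgfra*. *Gata6* had 0.00854 ± 0.00264 against 0.00233 ± 0.00152, and *Sox7* 0.0102 ± 0.00124 against 0.00385 ± 0.000513. The slopes of *Lamb1*, 0.123 ± 0.0140 and 0.118 ± 0.0168, and of *Gata4*, 0.0175 ± 0.00221 and 0.0147 ± 0.00321, differed by less than the larger of their standard errors. From 10 and 20 min alone, 3 of the 8 slopes were larger in *Tet2*-KO against 59.7% of all genes tested, and those of *Lama1* were 1.72 ± 0.222 against 2.08 ± 0.128 in WT.

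The other genes of the same tissues did not all move in one direction. Counts for the lists in this and the following paragraphs stand beside those of all genes tested. Per ERCC read 80.5% of these were higher and 4.15% lower, with a median log2 fold change of 0.70. As a share 24.6% were higher and 32.0% lower, with a median of -0.04. Of 18 visceral endoderm genes 9 were tested, and per ERCC read 6 were higher and 2 lower in *Tet2*-KO, with a median log2 fold change of 1.12. *Dpp4*, a peptidase of the cell surface, was highest at 2.02 ± 0.06 and *Lrp2*, or megalin, the partner of cubilin in uptake, stood at 1.36 ± 0.06. *Hnf4a*, a nuclear receptor of visceral endoderm, was lower at -0.22 ± 0.09. *Apoa2*, an apolipoprotein gene, had 37 to 76 reads per WT library and at most 3 per *Tet2*-KO library. As a share 2 of the 9 were higher and 3 lower. Among 8 parietal endoderm genes 7 were tested, of which 4 were higher and 1 lower per ERCC read, with *Vim* at 0.83 ± 0.06, *Plat* at 0.59 ± 0.25 and *Krt19*, a keratin, lower at -1.85 ± 0.39. As a share 1 was higher and 1 lower.

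The 10 further basement membrane genes were all tested. Each was higher per ERCC read, with a median log2 fold change of 0.90, from *Lamb2* at 0.41 ± 0.09 and *Lamc1* at 0.48 ± 0.05 to *Col4a2*, a collagen IV chain, at 1.19 ± 0.08 and *Sparc*, which binds collagen, at 1.21 ± 0.06. As a share 6 rose and 3 fell, with *Lamc1* at -0.25 ± 0.01 and *Lamb2* at -0.32 ± 0.08 lower like *Lama1* and *Lamb1*, while *Sparc* at 0.48 ± 0.03 and *Col4a2* at 0.46 ± 0.07 rose. The 14 genes of FGF and ERK signalling, the pathway upstream of *Gata6*, were all higher per ERCC read with a median of 0.74. As a share 5 rose and 3 fell with a median of 0.01. Both medians were near those of all genes tested, 0.70 and -0.04, of which 80.5% were higher per ERCC read. Per ERCC read *Map2k1*, the gene of MEK1, stood at 1.05 and *Map2k2*, the gene of MEK2, at 0.17.

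Factors of the pluripotent epiblast were tested for 9 of 10 genes. Per ERCC read 7 were higher and 1 lower, with a median of 0.61 against 0.70 over all genes tested. As a share 3 rose and 6 fell. *Tbx3* stood at 1.03 ± 0.05 and *Prdm14* at 1.0 per ERCC read. *Zfp42*, also called *Rex1*, was lower at -1.52 ± 0.05, and *Klf4* at 0.09 ± 0.05 was not called. The summed share of the 10 epiblast factors was 3156 to 3315 CPM in WT and 2419 to 2516 in *Tet2*-KO, and that of the 10 primitive endoderm genes 239 to 316 in WT and 213 to 301 in *Tet2*-KO. Most of the difference in epiblast factors lay in *Zfp42* and *Tfcp2l1*, chosen after their values were seen, whose sum was 1412 to 1602 CPM in WT and 767 to 899 in *Tet2*-KO, while the sum of the other 8 factors was 1602 to 1777 in WT and 1552 to 1696 in *Tet2*-KO. Of 9 definitive endoderm and anterior genes 5 were tested, and per ERCC read 3 were higher, led by *Otx2*, a factor of anterior epiblast and visceral endoderm, at 2.90 ± 0.13, while as a share 1 rose and 2 fell. Of the 7 tested fibroblast markers 4 were higher and 1 lower per ERCC read and 2 higher and 2 lower as a share. Of 7 trophectoderm genes 4 were tested, with 3 higher per ERCC read and, as a share, 2 higher and 1 lower.

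**Figure D5:**
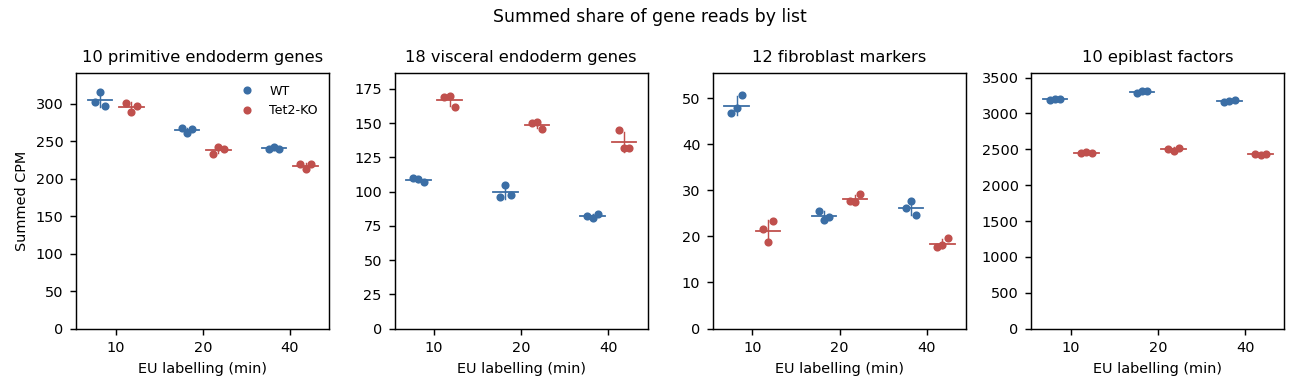
Summed CPM (vertical, from 0) of the 10 primitive endoderm genes, 18 visceral endoderm genes, 12 fibroblast markers and 10 epiblast factors against EU labelling time in min, for WT (blue) and *Tet2*-KO (red), with each library as a point, means as horizontal and SD as vertical lines. The visceral endoderm sum was higher in *Tet2*-KO, at 132 to 170 against 80.8 to 110 in WT, and the epiblast sum lower. Without *Lrp2* and *Dpp4*, chosen after their values were seen and holding most of its reads, the visceral endoderm sum of the other 16 genes was 12 to 20.5 in *Tet2*-KO and 18.5 to 30.4 in WT.

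For each tested member, the protein-coding gene whose share varied most like it was taken by Pearson's r of log2(CPM + 1) over the 18 libraries, among 13369 candidates. Libraries of a group share genotype and labelling time, so these values are descriptions. *Gata4* was most like *Lrp5* (r = 0.974), a WNT co-receptor gene, *Lama1* like *Me1* (r = 0.965) and *Lamb1* like *Arhgap23* (r = 0.972). *Sox7* was nearest to *Gstcd* (r = 0.890), *Cubn* to *Chst7* (r = 0.888), *Gata6* to *Lias* (r = 0.836) and *Pdgfra* to *Selenon* (r = 0.829). *Dab2* reached 0.750 with *Naa15*.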

How the data were processed

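Nascent RNA was measured in 18 libraries of WT and *Tet2*-KO mES cells. The labelled RNA was biotinylated by click chemistry after rRNA depletion, captured on streptavidin and made into strand-specific libraries. The authors trimmed reads with Trimmomatic 0.39, aligned them with HISAT2 2.2.1 to mm10 with the ERCC sequences and GENCODE M19, counted them with HTSeq 0.12.4 and deposited raw counts per gene. The feature type, strand and overlap settings of HTSeq are not given in the sources used here, and the zeros of genes inside others on the same strand are what counting over whole genes by strand leaves. Entries that name no gene held 20.9 to 24.9% of reads and were left out. Names and positions came from GENCODE M21, which held 54409 of the identifiers.

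Genes were kept by filterByExpr with a minimum count of 10 (19910 genes, 15158 protein-coding). One edgeR 4.0.16 quasi-likelihood fit of all libraries, with 6 groups, was made with ERCC totals and another with gene read totals as library sizes, with Benjamini-Hochberg adjustment over all genes. Standard errors are the log2 fold change over the square root of F. In simulated data for the average comparison of 19910 genes, 200 of 200 changed genes were recovered on each scale, with 10 (ERCC) and 12 (share) unchanged genes called. The changed genes had more reads than *Gata4*, *Gata6*, *Sox7*, *Pdgfra* or *Cubn*, a fixed spread, and larger folds than most members. Their recovery therefore does not speak for members with few reads or small folds. The simulation had no effect of labelling time, no shift of most genes and no error in the library sizes. The low count of unchanged genes called therefore does not give the error rate in the real libraries. DESeq2 1.42.0, TMM, other filters, other ERCC sets, a replicate block and leaving out each library were the alternatives, run in R 4.3.3 with limma 3.58.1. The 4 read ratios were tested by exact permutation, averaged over labelling times. No 2 replicates of a group were copies, the 18 replicate pairs having 1.66 to 5.53 as mean chi-square over genes. Counts without molecular identifiers cover counting error only, and 3 reads per library were taken as the floor.

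The 10 genes, the other lists and the tests were chosen with earlier results of these data known. Named were all 10 members, of the other lists genes among the 2 highest and 2 lowest tested per ERCC read, of which some are not reported here, and for each member the gene most like it with a mean of at least 1 CPM. *Nanog*, *Pou5f1*, *Esrrb* and *Sox2* are cell type markers.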

Additional observations from a re-analysis of the deposited data

Results flagged for a closer look

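*Lama1* was the only one of the 8 tested genes called by the test for a change of the difference between *Tet2*-KO and WT with labelling time. Per ERCC read, the log2 fold change of 1.04 at 10 min and 0.55 at 40 min differed by -0.494 (SE 0.12, edgeR adjusted p = 0.00240). As a share of gene reads, the change from 10 to 40 min was -0.1504 (SE 0.04, edgeR adjusted p = 0.0113). In the share, the groups overlapped at 10 min and every *Tet2*-KO library lay below every WT library at 20 and 40 min. Of all genes tested, 19.3% changed in this direction per ERCC read and 3.36% as a share. The median change over all genes tested was -0.29 per ERCC read and 0.06 as a share. Per ERCC read the all-gene median was 0.96 at 10 min and 0.67 at 40 min. *Lama1* held 82.3% of the reads of the 10 genes, so a like change in the others was harder to call. Per ERCC read the count of called members rose to 2 when some single libraries were left out.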

How the results depend on the processing

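Per ERCC read, members higher at 40 min numbered 5, and 3 with at least 10 counts in every library or with no filter. As a share, the average had no member higher, and 1 (*Dab2*) with TMM, DESeq2 or without the 10 min labelling time, an alternative chosen after seeing the data. At 10 min none was higher, and 1 with TMM or DESeq2. The filter of 10 counts in every library drops *Sox7* and left 0 in place of 1 member higher at 40 than at 10 min in WT and in *Tet2*-KO. Over the 10 genes, slopes larger in *Tet2*-KO fell from 10 to 3 with 10 and 20 min only. This counts *Sox17* and *Foxa2*, which had too few reads for a comparison of slopes. Among the 8 tested members the count fell from 8 to 3, against 86.8% and 59.7% of all genes tested. The slopes of *Lama1*, *Lamb1*, *Gata4*, *Sox7* and *Cubn* turned smaller. With each library left out in turn, the member counts were, per ERCC read, 3 to 6 higher at 40 min and 1 to 2 with a changed difference, and as a share 0 to 2 higher on average, 1 to 3 lower at 10 min, 0 to 1 higher at 20 min, 0 to 1 higher and 3 to 6 lower at 40 against 10 min in WT, and 0 to 1 higher in *Tet2*-KO. Over the 10 genes, slopes larger in *Tet2*-KO then numbered 7 to 10. Among the tested members only the slope of *Lamb1* became smaller in *Tet2*-KO, at 0.952 to 0.982 times WT. It did so without WT 40 min replicate 3, *Tet2*-KO 10 min replicate 2 or *Tet2*-KO 40 min replicate 1. All other counts stayed within 1.5 times, no called fold change reversed, and the 4 ratios kept their side of the threshold in all 76 alternatives run.

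The replicate numbers do not pair the libraries, since the 45 same-number pairs had a median correlation of -0.01, and the fit with a replicate block changed no count by over 1.5 times, with 7 members higher per ERCC read and 4 lower as a share on average. Scaling by the 18 ERCC transcripts that had 100 reads or more throughout gave the same all-gene median of 0.70. Members with under 60 reads per library, *Gata6*, *Sox7* and *Cubn*, have the widest intervals, and *Sox17* and *Foxa2* were too shallow to test.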
